A study of Mus musculus with 2 samples.

Results

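Cd209a-positive type 2 dendritic cells were taken from the tumour-infiltrating leukocytes of KO and WT mice bearing B16-F0 melanoma, a transplantable mouse tumour line. Cells were chosen by their counts of unique molecular identifiers (UMIs), each standing for 1 captured RNA molecule. A cell needed at least 1000 UMIs, at least 500 genes and at most 10% mitochondrial UMIs to be kept. A kept cell was a member when it held at least 2 Cd209a UMIs, no more than 1 UMI of Xcr1 and Clec9a together, of Cd3d and Cd3e together and of Cd79a, no Ncr1 UMI, and not 2 or more UMIs of both Fscn1 and Ccr7. This gave 408 members among 11131 kept KO cells and 288 members among 11153 kept WT cells. The KO group was 1 library of living CD45+ DAPI- cells from tumours of the knockout genotype, and the WT group was 1 such library from the wild-type genotype. The labels name neither the gene knocked out, nor the strain, sex or age, nor how many mice entered a library, so the knockout could not be checked in the counts. They call the cells TIL-Treg, while the stated sort takes all living leukocytes.

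With 1 library per genotype no difference has a replicate check and no test was made. All brackets hold 95% intervals that cover counting error only. A gene was called higher or lower in KO members when its level differed at least 1.5-fold and the interval excluded equality, a rule of size, among genes with at least 50 UMIs in the members of both libraries together. Levels are given in CPM, the UMIs of a gene summed over the members of a library for each 1000000 of all their UMIs. The members held 4713768 UMIs in the KO library and 3850777 in the WT library, with medians per cell of 10294.5 and 11569 UMIs. Of the deposited barcodes 42 occurred in both libraries, and none of these was a member in both.

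Dendritic cells take up antigen and present it to T cells. Conventional dendritic cells divide into type 1 cells (cDC1), which carry Xcr1 and Clec9a and are known for showing captured antigen to CD8 T cells, and type 2 cells (cDC2), which are known for priming CD4 T cells and need the transcription factor Irf4. Cd209a encodes a lectin related to human DC-SIGN and is used as a marker of cDC2 and of dendritic cells that arise from monocytes. Interferons bind their receptors on such cells and switch on antiviral genes, guanylate-binding proteins and the chemokines that draw T cells carrying Cxcr3.

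The 5 marker genes were at high levels in the members of both libraries. Cd209a, which chose the cells, stood at 1113 CPM in KO and 941 CPM in WT members, with a median of 10 and 9 UMIs per cell. Clec10a, a lectin for galactose-type sugars, stood at 501 CPM in KO and 432 CPM in WT members, and the closely related lectin gene Mgl2 at 441 CPM in KO and 430 CPM in WT members. Ifitm1, an interferon-inducible membrane protein gene, stood at 1096 CPM in KO and 975 CPM in WT members, and Cd209d at 222 CPM in KO and 256 CPM in WT members. None of the 5 was called between genotypes. The largest ratio among them was that of Cd209a, which the gate used, at log2 0.24 [0.18, 0.30], and the lowest that of Cd209d at log2 -0.21 [-0.33, -0.08].

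Cells were also gated as cDC1, mature dendritic cells, plasmacytoid dendritic cells (pDC), monocytes, macrophages, B cells and T cells for comparison. Of 2306 genes with at least 50 CPM in the members of both libraries, 90 were higher in the members than in all 7 gates in both libraries. Only 8 of them were at least 2-fold higher, namely Cd209a, Bex6, Fcor, Il1r2, Ifitm1, Ffar2, Rin3 and Fh1. Il1r2, a decoy receptor for interleukin-1, stood at 65.6 CPM in KO and 61.5 CPM in WT members, and no gate passed 21.8 CPM. Ffar2, a receptor for short-chain fatty acids, stood at 58.6 CPM in KO and 52.2 CPM in WT members. The 7 gates included none for neutrophils or NK cells, so levels in those cells were not compared. Cells with 1 Cd209a UMI that met every other condition were not among the 7 gates either. Ifitm1 stood in them at 421 CPM in KO and 1038 CPM in WT, the latter above the 975 CPM of WT members. These genes come from the cells that the gate chose and are given as a description.

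Genes of conventional dendritic cells were present, beside genes shared with monocytes. Flt3, the growth factor receptor of dendritic cells, stood at 51.8 CPM in KO and 52.7 CPM in WT members. It reached 134 CPM in the KO and 142 CPM in the WT cDC1 gate, and 6.45 CPM in the KO and 9.24 CPM in the WT monocyte gate. Zbtb46, a transcription factor of conventional dendritic cells, stood at 30.1 CPM in KO and 21.8 CPM in WT members, against at most 0.484 CPM in the monocyte gates. The members thus lay between the cDC1 and monocyte gates for Flt3 and nearer to cDC1 for Zbtb46, which stood there at 40.2 CPM in KO and 35.3 CPM in WT. Irf4 stood at 38.6 CPM in KO and 41.8 CPM in WT members, and at 3.72 CPM in the KO and 3.77 CPM in the WT cDC1 gate. H2-Ab1, an MHC class II chain, stood at 6367 CPM in KO and 6612 CPM in WT members, against 1492 CPM in the KO and 974 CPM in the WT monocyte gate. The lysozyme gene Lyz2, which with Ly6c2 chose the monocyte gate, stood at 2057 CPM in KO and 2223 CPM in WT members. That gate held 15488 CPM of it in KO and 16219 CPM in WT. Ms4a4c, a monocyte gene outside the gate's rule, stood at 719 CPM in KO and 473 CPM in WT members. The monocyte gate held 1029 CPM of Ms4a4c in KO and 691 CPM in WT. Plac8 stood at 1496 CPM in KO and 1462 CPM in WT members, against 3470 CPM in the KO and 3541 CPM in the WT monocyte gate. Fcgr1 stood at 115 CPM in KO and 81.0 CPM in WT members, against 454 CPM and 302 CPM there. Ccr2, the receptor by which monocytes enter tissue, was high in the members too, at 670 CPM in KO and 725 CPM in WT.

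**Figure D1:**
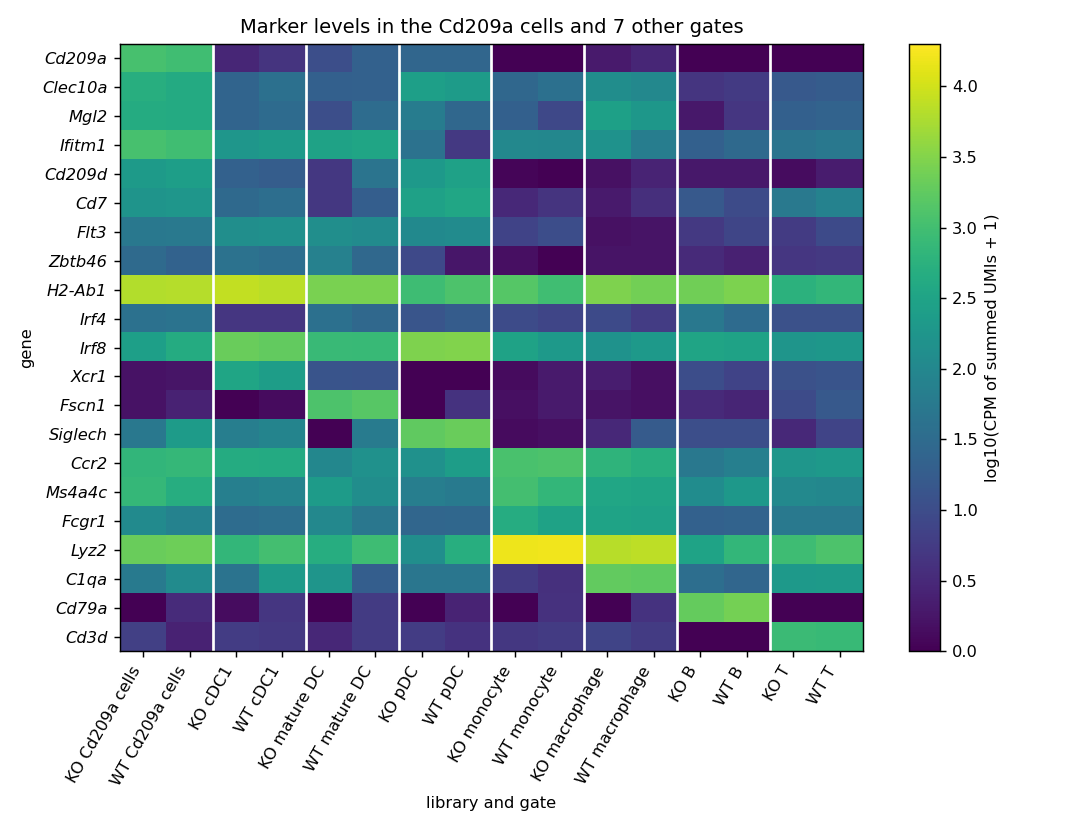
Levels of 21 genes as log10 of CPM plus 1 (colour) in the members, labelled Cd209a cells, and the 7 other gates, with the KO column left of the WT column in each pair. Cd209a is high in the members alone, where the gate put it, while Cd209d and Cd7 are shared with the pDC gate, and Mgl2 and Lyz2 with the macrophage gate.

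Not every member had the profile of a type 2 dendritic cell. Cells with at least 2 UMIs of Siglech, a receptor of pDC, made up 24 of 408 KO members, or 5.88% [3.80, 8.63], and 53 of 288 WT members, or 18.4% [14.1, 23.4]. These cells held genes of pDC at high levels. Siglech itself, which chose them, stood at 1095 CPM in KO and 1686 CPM in WT, against 1807 CPM in the KO and 2046 CPM in the WT pDC gate. Tcf4, the transcription factor that sets pDC identity, stood at 1703 CPM in the KO and 1644 CPM in the WT Siglech cells, against 153 CPM in the KO and 137 CPM in the WT members left when these and the C1q cells below are set aside. Irf8 stood at 1824 CPM in the KO and 2551 CPM in the WT Siglech cells, against 189 CPM in the KO and 121 CPM in the WT remaining members. Their H2-Ab1 was low, at 436 CPM in KO and 1269 CPM in WT. Mgl2 was low in them as well, at 9.28 CPM in KO and 46.0 CPM in WT, and Ifitm1 at 195 CPM in KO and 82.4 CPM in WT. Cd209d went the other way and was highest in the Siglech cells, at 599 CPM in KO and 736 CPM in WT, against 213 CPM in KO and 193 CPM in WT remaining members.

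A smaller set of members held RNA of macrophages. Cells with at least 5 UMIs of the complement genes C1qa and C1qb and fewer than 2 of Siglech numbered 12 KO members, or 2.94%, and 9 WT members, or 3.13%, and their median depth was 20502 UMIs in KO and 30495 UMIs in WT. C1qa stood at 984 CPM in the KO and 979 CPM in the WT C1q cells and at 3.54 CPM in the KO and 2.34 CPM in the WT remaining members. A further 1 WT cell met both conditions and is counted with the Siglech cells. Setting both kinds aside left 372 KO members and 226 WT members, called the remaining members here. Both kinds were defined after the values were seen. Values without them are given beside many of the results below. The remaining members still held monocyte genes. Ly6c2 stood at 373 CPM in KO and 250 CPM in WT remaining members, and was found in 53.0% of KO and 38.1% of WT ones. Lyz2 went the other way, at 1985 CPM in KO and 2149 CPM in WT. Of all members, 206 in KO and 164 in WT held a UMI of Flt3 or Zbtb46.

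Members differed among themselves along the level of Cd209a, the gene that chose them. Those with 10 or more Cd209a UMIs numbered 211 in KO and 130 in WT, and those with 2 to 9 numbered 197 in KO and 158 in WT. Clec10a stood at 664 CPM in the KO and 606 CPM in the WT members with 10 or more Cd209a UMIs, against 295 CPM in the KO and 260 CPM in the WT members with fewer. The class II gene H2-Ab1 ran the same way, at 7293 CPM in KO and 8426 CPM in WT against 5197 CPM in KO and 4834 CPM in WT. Siglech was concentrated in the cells with few Cd209a UMIs, at 4.94 CPM in KO and 28.3 CPM in WT with 10 or more, against 111 CPM in KO and 430.0 CPM in WT with fewer. Rsad2 stood at similar levels in both kinds of KO member, 112 CPM with 10 or more Cd209a UMIs and 130 CPM with fewer. This did not hold for Cxcl10, an interferon-inducible chemokine gene. In KO it stood at 650 CPM with 10 or more Cd209a UMIs and 385 CPM with fewer. In WT it ran the other way, at 72.9 CPM with 10 or more and 260 CPM with fewer. Its ratio of KO over WT thus differed with the level of Cd209a.

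Just inside the threshold, 45 KO and 34 WT members held exactly 2 Cd209a UMIs. Just outside it, 78 KO and 76 WT cells held 1 Cd209a UMI and met every other condition. These outside cells had H2-Ab1 at 3431 CPM in KO and 3507 CPM in WT, Lyz2 at 5343 CPM in KO and 4670 CPM in WT, and Irf8 at 835 CPM in KO and 1027 CPM in WT. Compared with the members they therefore held less of the class II gene and more Lyz2 and Irf8. Of the kept cells with 2 or more Cd209a UMIs, the lineage conditions removed 169 of 577 in KO and 226 of 514 in WT. Most failed on Cd3d and Cd3e, 120 in KO and 164 in WT, and 49 WT cells failed on Cd79a against 2 KO cells.

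The first comparison was the share of the members in each library. They made up 3.67% [3.32, 4.03] of kept KO cells and 2.58% [2.30, 2.89] of kept WT cells, a log2 ratio of 0.51. The B gate held 415 KO and 3438 WT cells. Outside it the members were 3.81% [3.45, 4.19] of KO cells and 3.73% [3.32, 4.18] of WT cells, so that the difference was within the counting intervals. Among gated myeloid and dendritic cells together they made up 24.0% [22.0, 26.1] in KO and 24.1% [21.7, 26.6] in WT. Among the cells of the 4 dendritic gates the members made up 61.2% [57.4, 64.9] in KO and 47.9% [43.9, 52.0] in WT. The pDC gate held 70 KO and 138 WT cells and the cDC1 gate 150 KO and 145 WT cells. Against cDC1 alone the members were 73.1% [69.2, 76.8] of the sum in KO and 66.5% [61.9, 70.9] in WT. The remaining members were 3.34% [3.02, 3.69] of kept KO cells and 2.03% [1.77, 2.31] of kept WT cells. A share can move because other cells in the sort move, and fewer cells in the tumour and fewer captured cannot be told apart.

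The second comparison was expression in KO against WT members. Of 8344 measured genes 256 were higher in KO members (3.07%) and 387 were lower (4.64%), with a median log2 ratio of -0.02 over all measured genes. The remaining members gave 292 higher (3.74%) and 194 lower (2.48%) of 7810 measured genes. Of the 256 higher genes 203 were also called higher in the remaining members, while of the 387 lower genes 128 were also called lower there. In the other kept cells of the libraries, 42 of the 256 and 97 of the 387 passed the same size and interval in the same direction. The sign was the same there for 205 of the 256 and 280 of the 387. These other cells are a pool of all kinds whose make-up differed between libraries, with 415 KO and 3438 WT cells in the B gate. Level and make-up cannot be told apart in ratios of this pool.

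Of the 23 gene lists, both interferon lists had the largest shares of genes higher in KO members. Of 24 measured genes of a type I interferon list 20 were higher and none was lower, with a median log2 ratio of 0.88. Of 21 measured genes of an interferon gamma list 18 were higher and none was lower, with a median of 1.11. Without the Siglech and C1q cells the same lists had 17 and 19 higher and none lower, with medians of 0.84 and 1.05. In the other kept cells the same genes had medians of 0.44 for type I and 0.63 for interferon gamma. Both lists were written with earlier results of these libraries known.

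The promoters of 6 genes are shown, Cxcl10 from the chemokine list and the others from both interferon lists. Interferon-activated transcription factors are known to bind a paired element. It was searched here as GAAA, any 2 bases, then GAAA, on either strand. Each line is a window of 120 bases before the gene's start in RefSeq on GRCm38.p6, printed 5′ to 3′ on the gene's own strand, and capitals mark every match in it, overlapping ones merged. The windows end at the base before the start, except those of Ifit3, which runs from base -142 to -23, and Cxcl10, from -233 to -114. The windows are Rsad2 at chr12:26456453-26456572 (minus strand), Ifit1 at chr19:34640769-34640888 (plus), Ifit3 at chr19:34583387-34583506 (plus), Isg15 at chr4:156200819-156200938 (minus), Cxcl10 at chr5:92349003-92349122 (minus) and Gbp2 at chr3:142620543-142620662 (plus).
Rsad2: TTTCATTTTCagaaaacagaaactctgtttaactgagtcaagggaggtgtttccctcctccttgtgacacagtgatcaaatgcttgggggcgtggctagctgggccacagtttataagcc
Ifit1: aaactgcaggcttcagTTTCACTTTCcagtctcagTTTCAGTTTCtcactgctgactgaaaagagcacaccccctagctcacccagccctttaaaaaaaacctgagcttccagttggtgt
Ifit3: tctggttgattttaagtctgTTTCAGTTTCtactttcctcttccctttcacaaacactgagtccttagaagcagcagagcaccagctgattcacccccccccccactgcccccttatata
Isg15: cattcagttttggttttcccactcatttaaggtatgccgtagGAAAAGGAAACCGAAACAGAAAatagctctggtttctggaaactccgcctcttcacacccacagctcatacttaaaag
Cxcl10: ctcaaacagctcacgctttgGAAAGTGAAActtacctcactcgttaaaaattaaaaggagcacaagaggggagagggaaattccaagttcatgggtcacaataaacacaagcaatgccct
Gbp2: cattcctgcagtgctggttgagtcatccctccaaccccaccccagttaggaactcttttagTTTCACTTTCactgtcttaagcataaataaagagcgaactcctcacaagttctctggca
Isg15 holds 3 overlapping matches, Ifit1 holds 2, and each of the other windows shown holds 1, while Ifit3 has a second match further upstream. Of all 32851 RefSeq promoters, 2.98% held a match in the 250 bases before the start. Counted by gene, with any promoter of a gene taken, it was 3.46% of 27025 genes. Among measured genes with a promoter in the table the pattern was found for 10 of 20 in the type I list and 9 of 14 in the interferon gamma list. All 6 genes shown hold a match, so they do not stand for the lists. Of genes named below, Cxcl9, Irf7, Cish, Ifi44, Ifit2, Irf1, Cd274, Pdcd1lg2, Ccl17, Ifngr1 and Ifngr2 had none in that window. A match describes letters, not binding.

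Ifi44 had the largest ratio of the type I list and is described with its neighbour below. Rsad2, which encodes viperin, an enzyme that makes a chain-terminating nucleotide, had 565 UMIs in KO and 74 UMIs in WT members, or 120 CPM [110, 130] in KO and 19.2 CPM [15.1, 24.1] in WT. The log2 ratio was 2.64 [2.29, 3.01], against 0.52 in the other kept cells. In KO members 17.5% of the Rsad2 UMIs lay in 1 cell. By gate Rsad2 went both ways. It stood at 360 CPM in the KO and 87.7 CPM in the WT monocyte gate. In the mature dendritic gate it stood at 269 CPM in KO and 22.8 CPM in WT. In the cDC1 gate it stood at 19.7 CPM in KO and 48.7 CPM in WT. Ifit1, Ifit2 and Ifit3 encode proteins with tetratricopeptide repeats that restrain viral RNA. Ifit1 had 331 UMIs in KO and 74 UMIs in WT members, or 70.2 CPM in KO and 19.2 CPM in WT (log2 1.87). Ifit3 stood at 89.9 CPM in KO and 26.7 CPM in WT members (log2 1.75 [1.44, 2.07]) and Ifit2 at 79.6 CPM in KO and 24.7 CPM in WT members (log2 1.69 [1.36, 2.03]). The Ifit ratios in the other kept cells lay between 0.56 and 0.66. By gate Ifit2 stood at 181 CPM in the KO and 61.8 CPM in the WT monocyte gate. In the B gate it stood at 8.63 CPM in KO and 11.3 CPM in WT. Isg15, a ubiquitin-like modifier, stood at 308 CPM in KO and 163 CPM in WT members (log2 0.92 [0.78, 1.06]), and Irf7, the factor that amplifies the response, at 168 CPM in KO and 96.1 CPM in WT members (log2 0.81 [0.63, 0.99]). Bst2 and Ifi27l2a, the most abundant genes of the list, were not called. Bst2 stood at 601 CPM in KO and 760 CPM in WT members, and at 487 CPM in KO and 398 CPM in WT remaining members, and it is also a pDC gene.

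**Figure D2:**
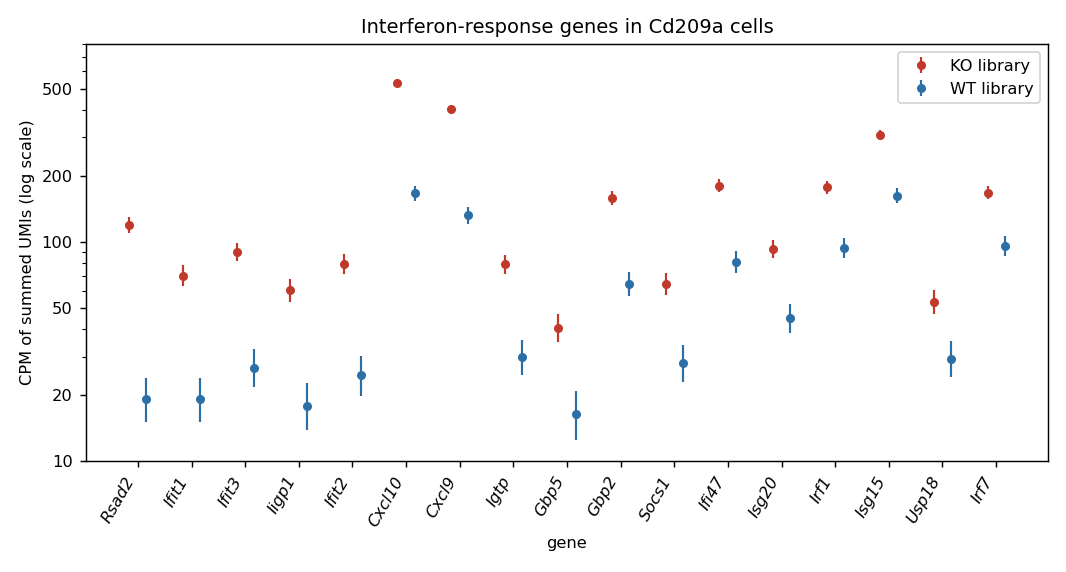
CPM (log axis) of 17 interferon-response genes in KO (red, left of each pair) and WT members (blue), ordered by the KO over WT ratio, with exact 95% Poisson intervals. The KO value lies above the WT value for each gene shown, and Rsad2 has the widest gap, 120 against 19.2 CPM.

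Genes of the interferon gamma list that were higher included transcription factors, feedback inhibitors and effectors. Irf1, a transcription factor induced early by interferon gamma, stood at 178 CPM in KO and 94.0 CPM in WT members (log2 0.92 [0.74, 1.10]). Socs1, a feedback inhibitor of the receptor kinases, stood at 64.5 CPM in KO and 28.0 CPM in WT members, a 2.30-fold difference. Among the guanylate-binding proteins, which attack the membranes of intracellular microbes, Gbp2 stood at 159 CPM in KO and 64.7 CPM in WT members (log2 1.30 [1.09, 1.51]) and Gbp5 at 40.7 CPM in KO and 16.4 CPM in WT members (log2 1.32 [0.90, 1.75]). The immunity-related GTPases Iigp1 and Igtp had log2 ratios of 1.75 [1.37, 2.15] and 1.41 [1.10, 1.72]. The receptor chains were not called. Ifngr1 stood at 139 CPM in KO and 140.2 CPM in WT members and Ifngr2 at 93.6 CPM in KO and 83.1 CPM in WT members.

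Ifi44 and its neighbour Ifi44l, interferon-inducible genes on chromosome 3, had the largest ratios of the named genes. Ifi44l had 97 UMIs in KO members and 0 in WT members, which with a floor of 3 UMIs for the WT members makes it at least 26.4-fold higher in KO. Ifi44 had 302 UMIs in KO and 21 UMIs in WT members (log2 3.55 [2.92, 4.27]). The other kept cells differed in the same direction. Ifi44l stood there at 7.30 CPM in KO and at 0 CPM in WT, and Ifi44 at 26.7 CPM in KO and 3.86 CPM in WT. Tpm3-rs7, a near-copy of Tpm3 whose counts are uncertain for that reason, had a log2 ratio of 2.36 in members and 2.11 in other cells. Mtmr9, a lipid phosphatase relative, had 2.39 in members and 1.34 in other cells. The labels give no strain for either library, so the effects of the knocked-out gene and of any other genetic difference between the mice on these 4 genes cannot be told apart.

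UMIs of interferon genes were spread unevenly over cells. Each cell was thinned to 2000 UMIs, which left out 1 KO member, and UMIs of the type I list other than Ifi44 were summed. The median was 6 in KO and 5 in WT members, and the mean 7.62 in KO and 6.07 in WT. Cells with 20 or more such UMIs made up 6.39% [4.22, 9.22] of KO and 3.13% [1.44, 5.85] of WT members. The top 10% of cells held 34.2% of these UMIs in KO and 29.7% in WT members. In the remaining members the mean was 7.29 in KO and 5.14 in WT. The B gate, in which these UMIs are few, had means of 1.98 in KO and 1.69 in WT.

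**Figure D3:**
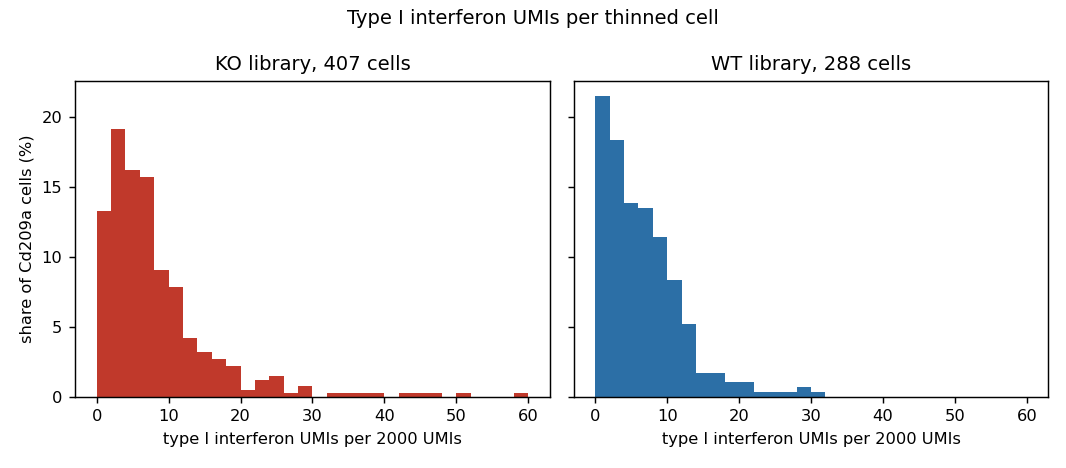
Share of members (vertical axis, percent) by the number of type I interferon UMIs per cell after thinning to 2000 UMIs, in bins of 2, for 407 KO members (left) and 288 WT members (right). Both distributions peak below 10 UMIs, and the KO one runs further to the right, up to 58 against 31 UMIs.

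For Rsad2 and Gbp2 the shares of cells with a UMI moved as the sums did. This did not hold for every gene. Mki67, lower by its sum, was found before thinning in 7.60% of KO and 7.64% of WT members. Arg1, higher by its sum, was found in 2.70% of KO and 4.17% of WT members. At 2000 UMIs per cell Rsad2 was found in 8.60% [6.06, 11.8] of KO and 3.13% [1.44, 5.85] of WT members, and before thinning in 23.5% of KO and 11.1% of WT members. Gbp2 was found in 18.7% [15.0, 22.8] of KO and 5.21% [2.94, 8.44] of WT members at that depth, and in 35.3% of KO and 17.4% of WT members before thinning. In the B gate, whose median depth was 3507 UMIs in KO and 3365 UMIs in WT, the thinned shares were 1.71% in KO and 0.887% in WT for Rsad2, and 2.93% in KO and 1.98% in WT for Gbp2. Both genes were above that level in the members of both libraries.

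The higher interferon genes were not found in the members alone. The median log2 ratio of the type I list, over genes with at least 20 UMIs in a gate, was 0.88 in the members, 1.38 in mature dendritic cells, 0.79 in monocytes and 0.51 in pDC. It was 0.13 in T cells, -0.04 in macrophages, -0.17 in cDC1 and -0.27 in B cells. For interferon gamma genes the medians were 1.10 in the members, 1.38 in mature dendritic cells, 1.03 in monocytes and 0.93 in B cells, and between 0.28 and 0.57 in the other gates. The mature dendritic gate held only 39 KO and 30 WT cells. The type I medians were over unlike sets, 24 genes in the members, 20 in mature dendritic cells and 13 in pDC. The order of the gates rests on 1 library per genotype and was not tested.

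**Figure D4:**
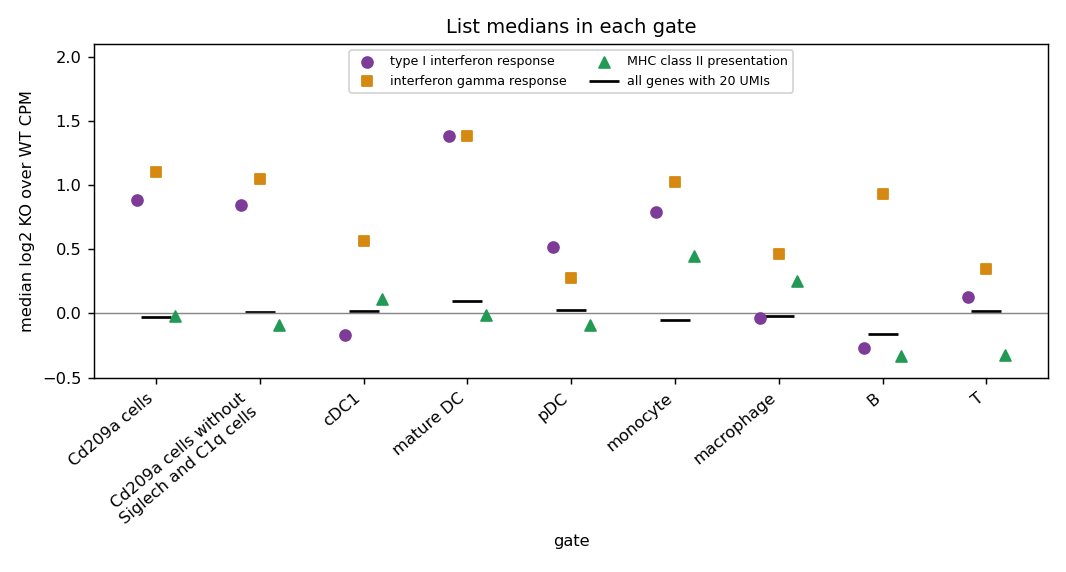
Median log2 ratio of KO over WT CPM (vertical axis) in the members, the members without Siglech and C1q cells, and the 7 other gates, for the type I interferon (circles), interferon gamma (squares) and MHC class II lists (triangles), with the median of all genes of at least 20 UMIs as a bar. Type I medians lie above 0.5 in members, mature dendritic cells, monocytes and pDC, and at or below 0.13 in the other gates.

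Chemokines split in both directions. Of 17 measured genes 4 were higher and 6 lower in KO members, and 7 were higher and 2 lower in the remaining members. The median log2 ratio was -0.34, against 0.51 for the same genes in the remaining members and 0.54 with each member thinned to 2000 UMIs. Cxcl9 and Cxcl10, interferon-inducible ligands of Cxcr3 that attract T cells, were among the higher. Cxcl10 had 2511 UMIs in KO and 644 UMIs in WT members, or 533 CPM in KO and 167 CPM in WT (log2 1.67 [1.55, 1.80]), with 5.69% of the KO and 21.1% of the WT UMIs in 1 cell each. Cxcl9 stood at 403 CPM in KO and 133 CPM in WT members (log2 1.60 [1.46, 1.75]), with 21.9% of the WT UMIs in 1 cell. After thinning Cxcl10 was found in 24.6% [20.5, 29.1] of KO and 9.03% [5.98, 12.9] of WT members, and Cxcl9 in 14.5% [11.2, 18.3] of KO and 5.21% [2.94, 8.44] of WT members. In the B gate the highest of these thinned shares was 1.47%. The ratios in other kept cells were 1.04 for Cxcl10 and 1.42 for Cxcl9, and the monocyte gates held more Cxcl10 than the members, 1571 CPM in KO and 567 CPM in WT.

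Ccl17, a ligand of Ccr4 that type 2 dendritic cells are known to make, stood at 91.2 CPM in KO and 27.0 CPM in WT members (log2 1.76 [1.44, 2.08]), against a log2 ratio of -0.09 in other kept cells. These members' Ccl17 UMIs came from few cells, 10.8% of KO and 6.25% of WT members, and 1 cell held 17.4% of them in KO and 26.0% in WT. Outside the members Ccl17 went both ways. The cells with 1 Cd209a UMI held 67.9 CPM in KO and 2.30 CPM in WT. The macrophage gate held 10.4 CPM in KO and 1.66 CPM in WT. The mature dendritic gate held 154 CPM in KO and 233 CPM in WT. Ccl22, which shares the receptor Ccr4, was lower at 7.21 CPM in KO and 14.5 CPM in WT members (log2 -1.01 [-1.67, -0.37]), with 57.1% of the WT UMIs in 1 cell. Cxcl2, a neutrophil-attracting chemokine, was lower at 136 CPM in KO and 376 CPM in WT members (log2 -1.46 [-1.60, -1.33]), as it was in other kept cells (log2 -1.10). Ccl8 had 89.9% of its WT UMIs in 1 cell and a log2 ratio of -2.55, which became 2.11 in the remaining members. Among migration receptors Cxcr4 was higher, at 21.2 CPM in KO and 12.5 CPM in WT members (log2 0.77 [0.26, 1.30]), while in other kept cells its log2 ratio was -0.78. C5ar1, the receptor of complement C5a, was lower at 5.94 CPM in KO and 22.1 CPM in WT members (log2 -1.89 [-2.57, -1.26], and -1.15 in the remaining members).

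Among genes of antigen presentation, none of 16 measured MHC class II genes was called, with a median log2 ratio of -0.02. Cd74, the invariant chain, stood at 12408 CPM in KO and 12706 CPM in WT members, and H2-Ab1 had a log2 ratio of -0.05 [-0.08, -0.03]. Of 21 MHC class I genes 2 were higher and none lower, with a median of 0.25. They were Nlrc5, the transactivator of class I genes, with a log2 ratio of 0.64 [0.23, 1.06], and the peptide-editing factor Tapbpl with 0.66 [0.27, 1.07]. Psme2, a proteasome activator subunit, was at 0.49 [0.38, 0.59] and B2m, the light chain of class I, at 0.19 [0.14, 0.24], and neither was called.

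Of 20 costimulatory and inhibitory ligands 3 were higher and 1 lower. Cd40, the receptor through which helper T cells license dendritic cells, stood at 52.4 CPM in KO and 22.1 CPM in WT members (log2 1.25 [0.89, 1.62]), against -0.10 in other kept cells. Both ligands of the checkpoint receptor PD-1 were higher. Cd274 stood at 54.5 CPM in KO and 27.8 CPM in WT members (log2 0.97 [0.64, 1.31]), against 0.26 in other kept cells. By gate Cd274 went both ways. It stood at 147 CPM in the KO and 70.2 CPM in the WT monocyte gate. In the cDC1 gate it stood at 19.7 CPM in KO and 27.8 CPM in WT. Pdcd1lg2 stood at 17.8 CPM in KO and 5.97 CPM in WT members (log2 1.58 [0.90, 2.31]), against 0.47 in other kept cells. The B7 genes Cd80 and Cd86, which costimulate T cells through Cd28, were at log2 0.50 [0.01, 1.00] and 0.58 [0.37, 0.80] and were not called, although Cd80 was called in the remaining members (log2 0.59), nor was the maturation marker Cd83 at 0.37 [0.07, 0.67]. Cd200 was lower at 4.67 CPM in KO and 9.09 CPM in WT members, and in the remaining members it had under 50 UMIs and could not be called. The list had 4 higher and 0 lower there.

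Among 13 measured cytokine genes 3 were higher and 1 lower, against 1 higher and 1 lower in the remaining members. Il15, which sustains CD8 T and NK cells, had 55 UMIs in KO and 18 UMIs in WT members (log2 1.32 [0.53, 2.18]). The interleukin-1 family genes Il1b and Il18 had log2 ratios of 0.60 [0.49, 0.70] and 0.65 [0.13, 1.18], and both were called, though not in the remaining members. Tnfsf12 was lower with 50 UMIs in KO and 77 UMIs in WT members (log2 -0.91 [-1.46, -0.38]). Il12b, a subunit of interleukin-12, had 0 UMIs in the members of both libraries, which with 3 UMIs as the floor was not detectable at this depth. Cish, a cytokine-induced inhibitor of STAT5 signalling, stood at 85.3 CPM in KO and 26.7 CPM in WT members (log2 1.67 [1.36, 2.00]), against 0.82 in other kept cells. Its KO level lay above the WT level in every comparison gate, as in monocytes at 65.3 CPM in KO and 28.0 CPM in WT. Cish was found in 42.9% of KO and 19.1% of WT members, and after thinning in 13.5% [10.3, 17.2] of KO and 5.56% [3.21, 8.87] of WT members. The interferon-inducible Ifi205 and Ifi211, members of the family of DNA sensors on chromosome 1 whose similar sequences make their counts uncertain, had log2 ratios of 1.43 [1.26, 1.61] and 1.35 [1.16, 1.54]. Crip2, which encodes a LIM-domain protein, had 1.79 [1.17, 2.45].

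**Figure D5:**
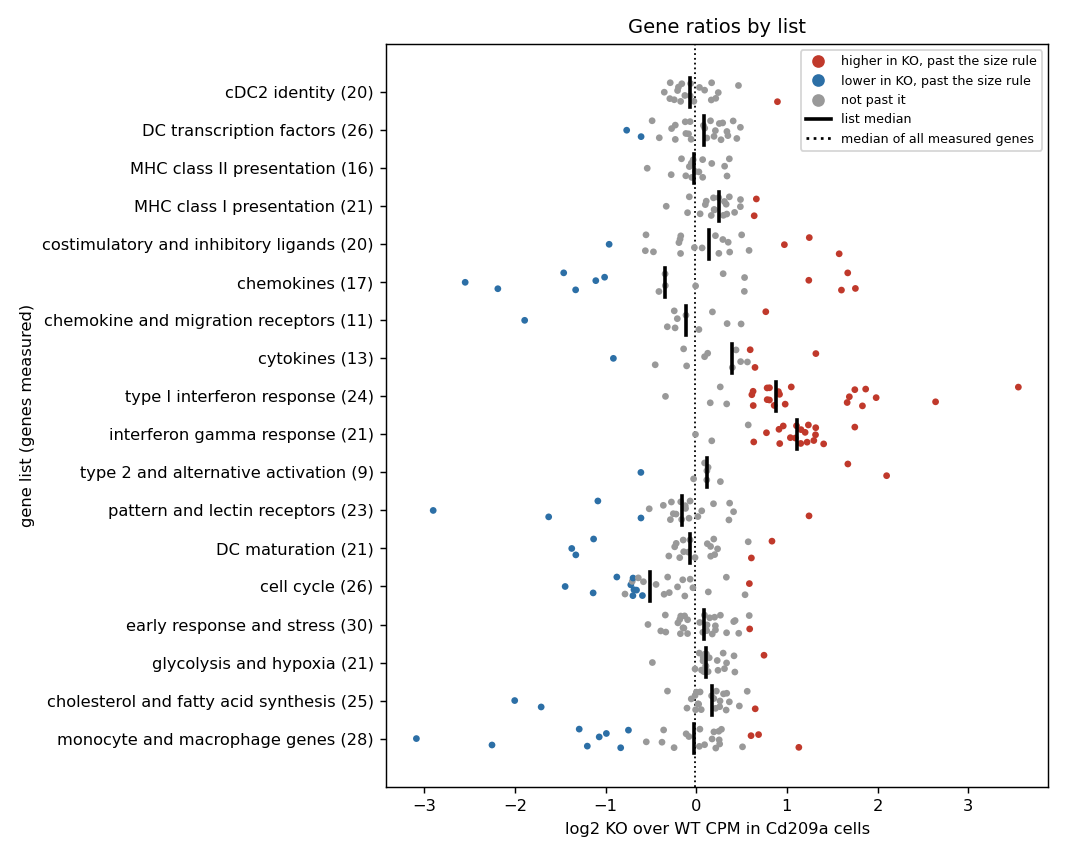
Log2 ratio of KO over WT CPM in the members (horizontal axis) for each measured gene of 18 lists, with genes past the size rule in red (higher in KO) or blue (lower), list medians as bars and the median of all measured genes, -0.02, as a dotted line. Nearly every gene of both interferon lists lies right of the line, the class II list centres on it, and the chemokine list spreads to both sides.

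The named genes that were lower in KO members were mostly genes highest in pDC. By the naming rule the first 12 were Siglech, Ctse, Pacsin1, Rpgrip1, Abi3, Prkca, Blnk, Spib, Snx18, Pltp, Eldr and Runx2, and all but Abi3 had their highest level outside the members in the pDC gate. Siglech stood at 52.0 CPM in KO and 231 CPM in WT members (log2 -2.15 [-2.36, -1.95]), and the Siglech cells were 5.88% of KO and 18.4% of WT members. Spib, a transcription factor of pDC and B cells, stood at 11.7 CPM in KO and 30.9 CPM in WT members (log2 -1.41 [-1.89, -0.93]). Runx2, which acts in the exit of pDC from bone marrow in mice, had a log2 ratio of -1.06 [-1.29, -0.83]. Without the Siglech and C1q cells, Siglech, which set those cells apart, fell under the minimum of 50 UMIs, as did Pacsin1, Prkca and Eldr, so that none of these 4 could be called. Pltp and Blnk were measured and not called, and Spib and Runx2 changed sign without being called. Ctse, Rpgrip1, Abi3 and Snx18 were still lower there. Ctse, an aspartic protease, stood at 10.4 CPM in KO and 25.8 CPM in WT remaining members (log2 -1.31 [-1.88, -0.76]), and in other kept cells its log2 ratio was -1.68.

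Of 26 measured transcription factors of dendritic cells none was higher and 2 were lower, Irf8 and Tcf4, both high in pDC. Over all measured genes 4.64% were lower. In the remaining members 1 was higher and none lower. Irf8 stood at 263 CPM in KO and 448 CPM in WT members (log2 -0.77 [-0.87, -0.66]). In the remaining members it stood at 189 CPM in KO and 121 CPM in WT, a log2 ratio of 0.64 in the other direction. Tcf4 had a log2 ratio of -0.61 [-0.73, -0.49] in the members and 0.16 in the remaining members. Irf4 was at -0.11 [-0.43, 0.20] and Klf4, which acts in the development of type 2 cells, at -0.41 [-0.56, -0.26], and neither was called. Of 20 measured genes of cDC2 identity 1 was higher and none lower, with a median of -0.07. The higher one was Cd1d1, which presents lipids to NKT cells, and it was not called in the remaining members.

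Several cell cycle genes were lower in KO members, while the same list lay higher in the rest of the KO library. Of 26 measured genes 1 was higher and 9 lower, with a median log2 ratio of -0.51, against 0.59 for the same genes in other kept cells. The median in the members was 0.0277 with each cell thinned to 2000 UMIs and 0.0438 among members with a UMI of Flt3 or Zbtb46. Mki67, a marker of dividing cells, stood at 19.9 CPM in KO and 43.9 CPM in WT members (log2 -1.14 [-1.52, -0.77]) and Top2a, which untangles DNA before division, at 29.3 CPM in KO and 48.3 CPM in WT members (log2 -0.72 [-1.05, -0.40]). These UMIs came from few cells. Cells with at least 3 UMIs of Mki67, Top2a, Birc5, Cdk1 and Ube2c together were taken as cycling. They numbered 12 of 408 KO members, or 2.94% [1.53, 5.08], and 14 of 288 WT members, or 4.86% [2.68, 8.02], with overlapping intervals. Leaving them out moved the list's median to 0.23, while in the remaining members it was -0.74 with 11 genes lower. The list holds Mki67, Top2a and Ube2c, which helped choose the cycling cells, so the median of 0.23 is no independent check. Cdkn1a, an inhibitor of the cycle, was the gene that was higher, at 496 CPM in KO and 331 CPM in WT members (log2 0.59 [0.49, 0.69]).

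Several macrophage genes had most of their UMIs in a single cell. Of 28 measured monocyte and macrophage genes 3 were higher and 8 lower, with a median of -0.02, against 3 higher and 3 lower with a median of 0.15 in the remaining members. C1qa stood at 56.9 CPM in KO and 119 CPM in WT members, with 56.7% of the KO and 28.5% of the WT UMIs in 1 cell each. Spp1, which encodes osteopontin, had 81.2% of its WT UMIs in 1 cell (log2 -3.09), and Apoe, a lipid carrier, had 72.5% in 1 (log2 -2.00, but 0.32 in the remaining members). Ms4a4c, a monocyte gene also spread over many members, stood at 719 CPM in KO and 473 CPM in WT members (log2 0.60 [0.52, 0.69]) and at log2 0.40 in the remaining members, where it was not called. Among lectin receptors Clec4b1, expressed on type 2 dendritic cells in mice, was lower at 71.3 CPM in KO and 109 CPM in WT members (log2 -0.61 [-0.82, -0.40]), against 0.04 in other kept cells. Clec4d was lower (log2 -1.09, but 1.16 after thinning) and Clec5a was higher (log2 1.24).

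RNA of other cells differed in the members as well. The 10 B-cell genes summed to 141 CPM in KO and 229 CPM in WT members, with Cd79a at 0 UMIs in KO and 9 UMIs in WT, and 2 of 3 measured were lower, Ighm (log2 -0.76) and Cd79b (log2 -0.94), neither of them in the remaining members, where 1 of the 3 was higher. The 14 T and NK genes summed to 230 CPM in KO and 94.3 CPM in WT members, and 4 of 5 measured were higher. Gzma, a granule protease of killer cells, was among them with 271 UMIs in KO and 31 UMIs in WT (log2 2.84), as were Nkg7 (log2 1.40), Trbc1 (log2 1.11) and Ccl5 (log2 1.24), a chemokine gene that dendritic cells also express. Ncr1 was at 0 by the gate. Of the neutrophil and mast cell genes 2 of 3 measured were lower, and S100a8 had 19 UMIs in KO and 81 UMIs in WT members. Mcpt4, Cpa3 and Fcer1a were at 0. The melanoma gene Dct had 93 UMIs in KO and 9 UMIs in WT members, with 94.6% of the KO UMIs in 1 cell. The part of such RNA in the other results was not tested.

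The counts of the other lists stand against 3.07% higher and 4.64% lower over all measured genes. Of 30 early response and stress genes 1 was higher, the heat-shock cofactor Dnaja1 (log2 0.59 [0.47, 0.71]), and none lower, and in the remaining members 2 were higher. Of 21 glycolysis and hypoxia genes 1 was higher, Pfkp, a phosphofructokinase gene (log2 0.75 [0.62, 0.88]), and none lower. Of 25 cholesterol and fatty acid genes 1 was higher and 2 lower, against 2 higher and 0 lower in the remaining members. The type 2 activation list had 2 higher and 1 lower of 9. Mrc1, the mannose receptor, was lower at 123 CPM in KO and 188 CPM in WT members (log2 -0.61 [-0.77, -0.45]) but was not called in the remaining members and was at 0.0176 after thinning, and Arg1, which encodes arginase, was higher with 105 UMIs in KO and 20 UMIs in WT, 71.4% of the KO UMIs in 1 cell. Among members with a UMI of Flt3 or Zbtb46 the log2 ratio of Arg1 was -3.23, the other direction. Of 21 maturation genes 2 were higher and 3 lower, against 1 higher and 0 lower in the remaining members. Of 23 pattern and lectin receptors 1 was higher and 4 lower, against 2 higher and 2 lower in the remaining members. Of 11 migration receptors 1 was higher and 1 lower in both.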

How the data were processed

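The deposited matrices hold raw UMI counts as whole numbers. The matrices name Cell Ranger 5.0.0, per the file headers, and Cell Ranger, STAR and the mm10 build are named per the submitters' processing notes. No source names the gene models behind the counts. Libraries were 10x Genomics Chromium 3' libraries per the labels' protocols. The KO library held 112544655 UMIs over 11398 barcodes and the WT library 98438084 over 11432. GENCODE M21 matched 32158 of 32285 features by identifier for positions.

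The members and gene lists were chosen with earlier results of these data known. UMIs were summed over members, scaled to CPM and set as log2 KO over WT with exact conditional binomial 95% intervals, shares with exact Clopper-Pearson intervals (SciPy 1.17.1, pandas 2.3.3). Where 1 library had no UMI of a gene, 3 UMIs over its members stood in for the missing count. The calculation was tested on simulated data. Named genes had at least 50 UMIs, at least 20 CPM in the higher library, a UMI in at least 10% of its members, at most 20% of a library's UMIs in 1 cell and at least 0.1 of the CPM of their highest gate. Of these the first 12 each way by the interval bound nearest to 0 were taken, without mitochondrial, ribosomal, haemoglobin, immunoglobulin, T-cell receptor, clone-named and sex-linked genes. From each of 23 lists up to 4 genes by UMI sum and every called gene were open to naming. Others, such as Cd80, Cd83 and Il12b, were chosen after their values were seen. Comparison gates were cDC1 (Xcr1 and Clec9a at least 2 together), mature dendritic cells (Fscn1 and Ccr7 at least 2 each), pDC (Siglech at least 2), monocytes (Ly6c2 and Lyz2 at least 2 each), macrophages (C1qa and C1qb at least 5 together), B (Cd79a at least 2) and T cells (Cd3d and Cd3e at least 2 together), each with further exclusions on the other gates' genes.

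Doublets were kept in the values given. As an alternative the cells with the highest Scrublet scores (scanpy 1.11.5), 1015 in KO and 1020 in WT, were left out, 27 and 14 of them members.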

Additional observations from a re-analysis of the deposited data

Results flagged for a closer look

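Genes of the lists or the naming rule were searched here only where this report names them. Those listed were past the size rule in one direction in the members and in the other direction in the other kept cells. Both log2 ratios of KO over WT are given. With 1 library per genotype the difference between the cells was not tested. Cxcr4 was at 0.77 in the members and -0.78 in the other kept cells. The cell cycle genes Top2a, Mki67, Ube2c, Tpx2 and Rrm2 were at -0.72, -1.14, -0.70, -0.69 and -0.88 in the members and at 0.78, 0.61, 0.81, 0.75 and 0.74 in the other kept cells. Dct was at 3.08 in the members, where 94.6% of its KO UMIs lay in 1 cell, and at -1.26 in the other kept cells.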

How the results depend on the processing

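No paired analysis was possible because each genotype is 1 library, and no library could be left out. All values are KO over WT. List medians are over the genes measured under each setting. The cause of each change was not tested. Changes of sign of single genes were sought among 103 genes named in this report, and only for those called in the members. The log2 ratio of the members' share of kept cells, 0.51, was 0.42 with 1 Cd209a UMI enough, 0.52 with 3 needed, 0.44 with all lineage genes at 0, 0.33 among members with Flt3 or Zbtb46, 0.72 without Siglech and C1q cells and 0.0285 outside the B gate. The share of gated dendritic cells, 0.35, gave 0.24 with 1 Cd209a UMI, 0.36 with lineage genes at 0, 0.37 with Flt3 or Zbtb46 and 0.49 without Siglech and C1q cells. The 256 higher genes became 125 with at least 200 UMIs and 92 at 2-fold. The 387 lower genes became 194 without Siglech and C1q cells, 116 after thinning, 94 with at least 200 UMIs, 638 with no minimum and 135 at 2-fold. Under the other settings the counts were 183 to 352 higher and 277 to 544 lower.

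Log2 ratios that changed sign without Siglech and C1q cells, an alternative chosen after seeing the data, were Pacsin1 (0.17), Prkca (1.00), Spib (0.22), Eldr (1.72), Runx2 (0.29), Irf8 (0.64), Tcf4 (0.16), Cd200 (2.16), Ccl8 (2.11), Apoe (0.32), C1qa (0.59), C1qb (0.45), C1qc (1.01), Cox6a2 (0.91) and Ccr9 (0.87), and the medians of the chemokines (0.59) and of cDC1 and pDC genes (0.14). Without cycling cells, also chosen after seeing the data, Mki67 (0.41), Ube2c (1.11), Tpx2 (0.79), Dct (-1.19) and the cell cycle median (0.23) did so. Mki67 and Ube2c helped choose the cycling cells, and C1qa and C1qb chose the C1q cells. Their changes of sign are therefore no independent check. Without the Siglech and C1q cells C1qa rested on 15 UMIs in KO and 7 UMIs in WT. Thinning turned Mrc1 (0.0176), Clec4d (1.16), Tpx2 (0.0860) and the chemokine (0.54) and cell cycle (0.0277) medians. With 1 Cd209a UMI enough, Arg1 (-1.03), S100a8 (2.28) and the neutrophil and mast median (2.28) turned. With Flt3 or Zbtb46, Arg1 (-3.23) and the cell cycle median (0.0438) turned. With lineage genes at 0, Ccl8 (2.24) and the chemokine median (0.24) turned, as did Ccl8 under the stricter cell filter (0.73) and the chemokine median without high doublet scores (0.10) or with every cell weighted equally (0.19).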
